A study of Bombyx mori with 9 samples.

Results

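The genes described here copy the genome and move cells through the cell cycle, and they were read in the silk glands of 3 strains of the domestic silkworm, Bombyx mori. They were chosen by their names: a gene with a BGIBMGA identifier was taken when its description held 1 of 8 words or phrases, such as DNA polymerase, replication, proliferating cell, origin recognition or cyclin. This found 17 genes, and the 13 of them with at least 1 FPKM in at least 3 of the 9 libraries are the subject of what follows, out of 4636 features that passed the same filter. FPKM is the number of sequenced fragments of a gene, scaled by transcript length and by the library's total of mapped fragments. Of 14623 BGIBMGA genes, 1099 carried a description, so other genes of these pathways could not be found by name.

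The groups were the strains A306, XH and A798, with 3 libraries of total silk gland RNA each, from larvae of pure strains raised in the same conditions to day 5 of the last (instar 5) larval stage. The submitters chose the strains for the weight of the gland and compared A306 and XH with A798. By the mean of the 2 weights stated per sample, A306 glands weighed 0.688 ± 0.0207 g, XH glands 0.974 ± 0.00850 g and A798 glands 1.28 ± 0.0309 g (SD, n = 3 samples each). Whether replicate libraries stand for separate larvae is not stated. The p-values below therefore cover the variation among these samples only, and some of it may be technical. Each strain is a single stock, so strain and anything else that set its samples apart cannot be told apart.

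A cell copies its DNA in a fixed sequence of steps. The origin recognition complex marks the starting points, the GINS complex helps the replicative helicase to unwind the helix, and replication protein A coats the bared single strands. Replication factor C then loads PCNA, the ring that holds DNA polymerases on the template. Cyclin-dependent kinases time these steps: CDK2 with cyclin E starts DNA synthesis, and CDC2 with cyclin B starts mitosis. Silk gland cells stop dividing in the embryo and then copy their DNA again and again without mitosis, so that their nuclei become highly polyploid. DNA content was not measured in these samples.

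The glands carried the transcripts that define the tissue: the 7 genes of the silk gland list, among them FIBL (fibroin light chain) and P25, were all above the filter, and their summed FPKM ranged over the 3 libraries from 28701 to 28893 for A306, from 37209 to 38984 for XH and from 24383 to 25785 for A798. FIBL made up most of that sum, while the fibroin heavy chain gene (BGIBMGA005111) had another order, with 268 ± 5.81 FPKM in A306, 1479 ± 40.5 FPKM in XH and 854 ± 34.1 FPKM in A798. FPKM of a library summed to between 502510 and 587872, and the models of small and ribosomal RNA took between 5.07% and 19.7% of it, the highest share in A798 replicate 3. FPKM of every gene depends on this total, and the median log2 value of a library was between 2.74 and 2.78 for A306, between 2.66 and 2.69 for XH and between 2.40 and 2.46 for A798. The number of reads per library is unknown.

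The replication and cell cycle genes were transcribed at low to middling levels. The mean FPKM over 9 libraries ran from 0.936 for cyclin B to 14.7 for the replication protein A gene BMRPA3, with a median of 5.53, beside 5.44 for all features tested. FPKM summed over the 13 genes was 89.9, 94.2 and 89.1 in the A306 libraries, 79.8, 80.9 and 75.2 in the XH libraries, and 63.4, 58.1 and 59.3 in the A798 libraries. The 3 strains did not overlap in this sum. By mean FPKM, 7 genes had the order A306, XH, A798 from high to low and 6 had the order XH, A306, A798, so A798 had the lowest mean for all 13, for several by less than the spread between libraries. Of all features tested, 72.2% had a positive log2 change in A306 against A798 and 67.0% in XH against A798. Under TMM scaling, where the median change of all features was 0, 10 of the 13 members stayed positive in each of these comparisons. Under median centring 9 did in A306 and 10 in XH against A798. The share of all features that were positive under these scalings was not computed, so these counts do not set the members apart. In tissue RNA, fewer cells of a type and less RNA per cell cannot be told apart.

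Among the genes that prepare the origin, ORC5 (BGIBMGA014215), subunit 5 of the origin recognition complex, stood at 7.05, 7.11 and 8.12 FPKM in A306, at 4.99, 5.95 and 5.68 FPKM in XH, and at 5.31, 4.24 and 5.38 FPKM in A798. The A306 libraries lay above all others, while XH and A798 overlapped. PSF2, the GINS subunit encoded by BGIBMGA006680, was more variable, at 6.27, 9.98 and 8.79 FPKM in A306, 7.05, 5.23 and 7.96 FPKM in XH and 8.15, 5.24 and 4.68 FPKM in A798. Its 3 strains overlapped.

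At the fork, BMRPA3 (BGIBMGA009817), the small subunit of replication protein A, was at 19.91, 21.00 and 17.08 FPKM in A306, 12.85, 14.67 and 13.92 FPKM in XH and 9.66, 8.12 and 15.08 FPKM in A798. A306 lay above both other strains, and A798 replicate 3 was above all XH libraries. The gene described as replication factor C4 (BGIBMGA003377, called RFC4 here), a subunit of the clamp loader, was at 9.02, 8.13 and 8.41 FPKM in A306, 5.62, 5.12 and 4.42 FPKM in XH and 2.90, 4.26 and 1.91 FPKM in A798. It was the member for which the 3 strains stood farthest apart, with no overlap in any pair. PCNA (BGIBMGA010906), the ring that RFC loads, was at 8.25, 9.36 and 8.26 FPKM in A306, 12.09, 10.39 and 3.84 FPKM in XH and 6.06, 9.73 and 5.87 FPKM in A798. Its XH libraries included both the highest and the lowest value of all 9.

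Genes described only as DNA polymerase, with no statement of which enzyme they encode, were close to the filter. BGIBMGA003396 was at 1.78, 1.77 and 1.74 FPKM in A306, 1.57, 1.84 and 1.62 FPKM in XH and 0.86, 0.79 and 0.91 FPKM in A798. BGIBMGA006939 was at 1.65, 1.43 and 1.88 FPKM in A306, 1.83, 1.66 and 1.86 FPKM in XH and 0.74, 0.87 and 1.08 FPKM in A798. For both genes A306 and XH overlapped each other and lay above A798. BGIBMGA003396 passed the filter through A306 and XH alone, since no A798 library reached 1 FPKM, and the filter therefore favoured a gene that differed in this way. For BGIBMGA006939 a single A798 library reached 1 FPKM, at 1.08 FPKM, so it too needed A306 or XH to pass and was favoured likewise.

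Of the cell cycle regulators, CDK2 (BGIBMGA013453), the kinase that drives DNA synthesis, was steady within A306 and XH and more variable within A798, at 15.52, 15.95 and 15.41 FPKM in A306, 13.97, 13.79 and 14.06 FPKM in XH and 13.47, 11.18 and 10.45 FPKM in A798. The 3 strains did not overlap. The cyclin B homolog (BGIBMGA003747), partner of the mitotic kinase, was at 0.89, 0.84 and 0.63 FPKM in A306, 1.21, 1.27 and 1.84 FPKM in XH and 0.53, 0.66 and 0.55 FPKM in A798. It reached 1 FPKM in the XH libraries alone, and so passed the filter only through the strain where it was high. CDK7 (BGIBMGA001550), which activates other cyclin-dependent kinases and is also part of a general transcription factor, was at 5.74, 7.47 and 6.29 FPKM in A306, 5.23, 7.03 and 7.30 FPKM in XH and 5.48, 4.29 and 4.88 FPKM in A798. A306 lay above A798, and XH overlapped both.

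The word cyclin also drew in 3 genes whose main known roles lie outside the cell cycle. CDK5 (BGIBMGA004018), known from mammals as a kinase of nerve cells and the cytoskeleton, was at 3.33, 2.96 and 2.94 FPKM in A306, 2.26, 2.29 and 1.33 FPKM in XH and 1.34, 1.42 and 1.24 FPKM in A798. A306 lay above both other strains, and XH replicate 3 was within the range of A798. CDK8 (BGIBMGA011562), the kinase of the Mediator complex of transcription, was at 4.74, 4.07 and 3.85 FPKM in A306, 4.76, 4.83 and 5.60 FPKM in XH and 3.92, 3.17 and 3.00 FPKM in A798. CCNL1 (BGIBMGA013648), described as a cyclin, with a symbol used for cyclin L, a cyclin of RNA splicing, was at 5.71, 4.15 and 5.66 FPKM in A306, 6.33, 6.85 and 5.82 FPKM in XH and 4.93, 4.09 and 4.28 FPKM in A798. For CDK8 and CCNL1 the XH libraries were the highest, and A306 and A798 overlapped.

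**Figure D1:**
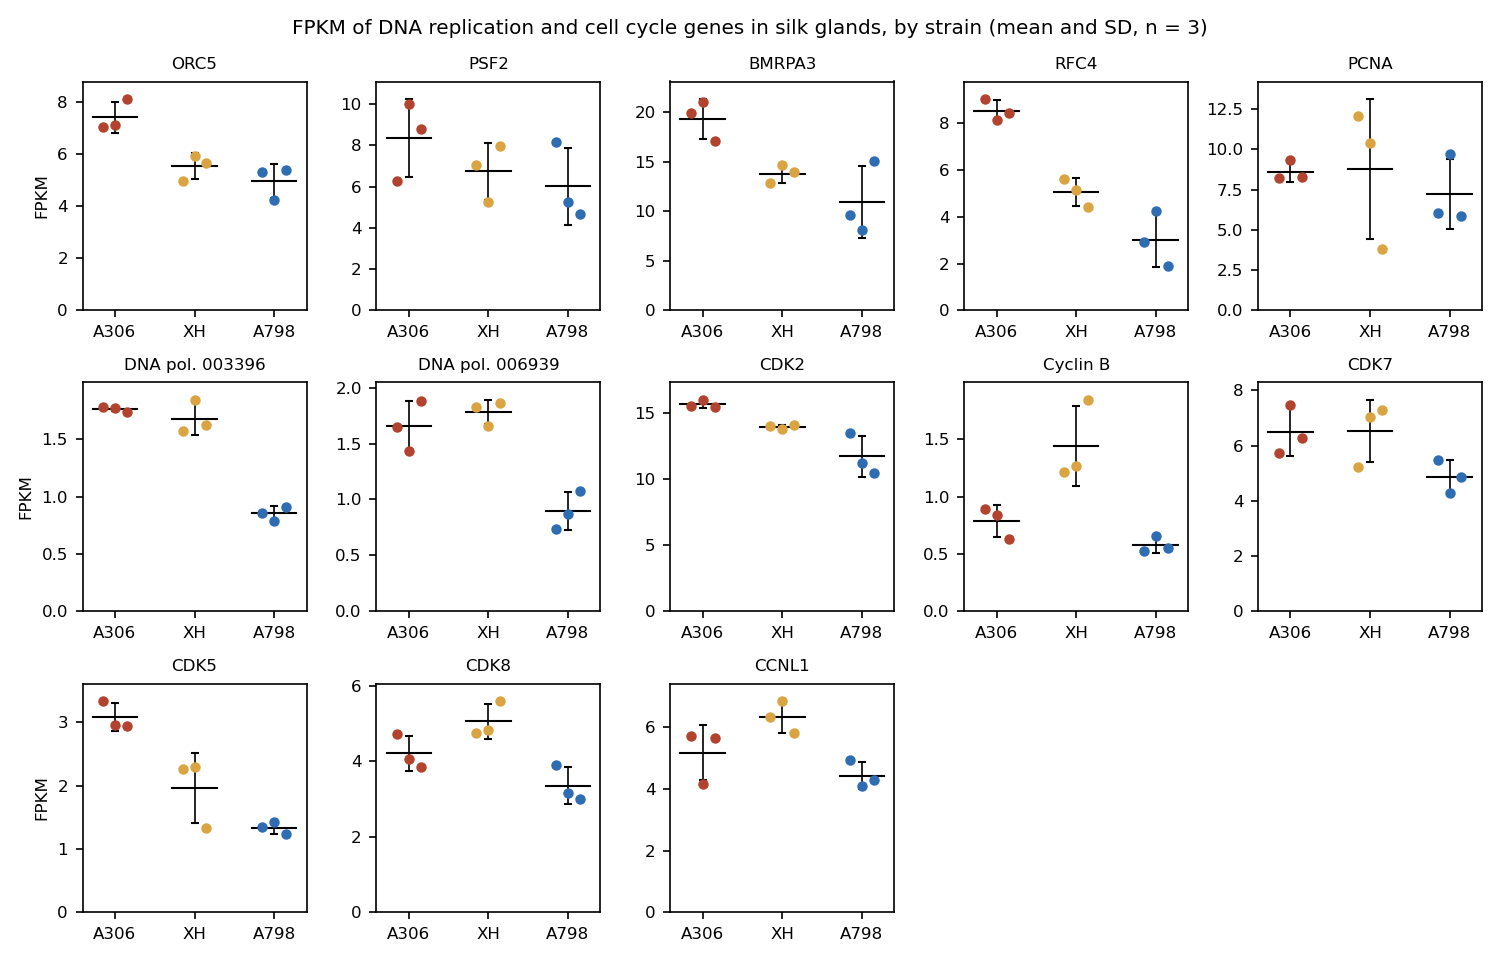
FPKM of the 13 genes (vertical axis, a scale of its own per gene, from 0) in the 3 libraries of each strain (points), with the strain mean (line) and SD (bar). For RFC4 and CDK2 the 3 strains do not overlap; PCNA spreads from 3.84 to 12.09 FPKM within XH.

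The 4 other genes that the words found did not reach the filter. The nearest to it was BGIBMGA002415, also described as a DNA polymerase, at 0.83, 0.93 and 0.87 FPKM in A306, 0.73, 0.80 and 0.86 FPKM in XH and 0.59, 0.42 and 0.48 FPKM in A798. Just inside the filter stood cyclin B, which was at 1.21 FPKM or more in 3 libraries, where BGIBMGA002415 was at 0.86 FPKM or more. Subunit B of DNA polymerase alpha, the enzyme that primes synthesis (BMO.4038), was at 0.07, 0.14 and 0.03 FPKM in A306, at 0.00 FPKM in the 3 XH libraries and at 0.12, 0.08 and 0.18 FPKM in A798. The cyclin E gene BMCYCE and the DNA polymerase gene BGIBMGA004825 were listed at 0 in all 9 libraries. A listed 0 does not show that a gene is silent here, since 7 genes described as ribosomal proteins, which every cell uses, were also among the 5418 features listed at 0 throughout.

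The first comparison set A306, with the lightest glands, against A798, with the heaviest. The clamp loader gene RFC4, BMRPA3, ORC5, both polymerase genes, CDK2 and CDK5 were higher in A306, and no member was lower. Values were compared as log2(FPKM + 1) with limma over all 4636 features, and a gene passed at a Benjamini-Hochberg adjusted p below 0.05. Of the 13 members 7 were higher in A306 (53.8%), beside 37.9% of all features tested. The filter favoured the calls of both polymerase genes, which are among the 7, so this count is not independent of it. None (0) was lower, beside 9.60% of all features, and at an unadjusted p below 0.05 the counts of members were 8 higher and 0 lower, beside 43.4% and 11.0% of all features. The median log2 change was 0.42 for the 13 genes and 0.31 for all features, so the features as a whole were also shifted towards A306.

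RFC4 averaged 8.52 ± 0.455 FPKM in A306 and 3.02 ± 1.18 FPKM in A798 (SD, n = 3 each), a ratio of 2.82. Its log2 change was 1.28 ± 0.202 (SE; limma adjusted p = 0.00123), which lay 0.98 above the median of all features. BMRPA3 averaged 19.3 ± 2.02 FPKM in A306 and 11.0 ± 3.66 FPKM in A798, a log2 change of 0.80 ± 0.195 (limma adjusted p = 0.0107). The kinase CDK5 changed by the same amount, 0.80 ± 0.155 on the log2 scale, with 3.08 ± 0.220 FPKM in A306 and 1.33 ± 0.0902 FPKM in A798 (limma adjusted p = 0.00349). ORC5 followed with 0.50 ± 0.114 (limma adjusted p = 0.00815) and CDK2 with 0.40 ± 0.0897 (limma adjusted p = 0.00788). The DNA polymerase genes BGIBMGA003396 and BGIBMGA006939 also rose, by 0.58 and 0.48 on the log2 scale (limma adjusted p = 0.00279 and 0.0142). The added 1 FPKM understates such low genes: the plain ratios of their means were 2.07 and 1.84.

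For the ring gene PCNA no change could be told from the spread. Its log2 change in A306 against A798 was 0.26, with a 95% interval from -0.58 to 1.09 (limma adjusted p = 0.592), wide enough to hold a change as large as that of BMRPA3 or none. The intervals of PSF2 (-0.12 to 0.97), cyclin B (-0.16 to 0.51), CDK8 (-0.02 to 0.54) and CCNL1 (-0.13 to 0.48) also included 0. CDK7 had an interval of 0.01 to 0.69 and did not pass (limma adjusted p = 0.0877). The difference between the changes of RFC4 and PCNA was not tested.

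Scaling the libraries in other ways removed much of this list. The number of members higher in A306 was 3 of 13 under TMM scaling and quantile normalization and 2 under median centring. Of all features, 15.7%, 17.2% and 16.4% were higher in that order, beside 37.9% as deposited. All of these scalings bring the median change of all features to between -0.02 and 0.03. RFC4 and CDK5 passed in each of these, RFC4 over all 19 alternatives (adjusted p from 0.000411 to 0.00760) and CDK5 over the 18 in which it was tested (adjusted p from 0.000999 to 0.0480). ORC5 and CDK2 did not pass under any of the 4 other scalings (adjusted p up to 0.394 and 0.818). BMRPA3 and BGIBMGA006939 were lost under TMM scaling, quantile normalization and median centring (limma adjusted p up to 0.156 and 0.406). BGIBMGA003396 was lost under median centring (limma adjusted p = 0.116). PCNA, CDK8 and CCNL1 had changes below 0 under TMM scaling, quantile normalization and median centring, and cyclin B under median centring.

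A ratio between genes of the same library is free of any factor common to the library. RFC4 FPKM per CDK2 FPKM was 0.581, 0.510 and 0.546 in A306, 0.402, 0.371 and 0.314 in XH and 0.215, 0.381 and 0.183 in A798. A306 lay above the other strains, and XH and A798 overlapped. RFC4 per PCNA was 0.993 ± 0.114 in A306, 0.703 ± 0.388 in XH and 0.414 ± 0.0793 in A798 (SD, n = 3 each), and the wide spread in XH came from replicate 3, where it was 1.15. RFC4 was the member that changed most against A798. BMRPA3 per CDK2 was 1.24 ± 0.112 in A306, 0.991 ± 0.0720 in XH and 0.962 ± 0.416 in A798. Its highest value, 1.44, was in A798 replicate 3. CDK5 per CDK8 was 0.731 ± 0.0307 in A306, 0.395 ± 0.137 in XH and 0.401 ± 0.0541 in A798.

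**Figure D2:**
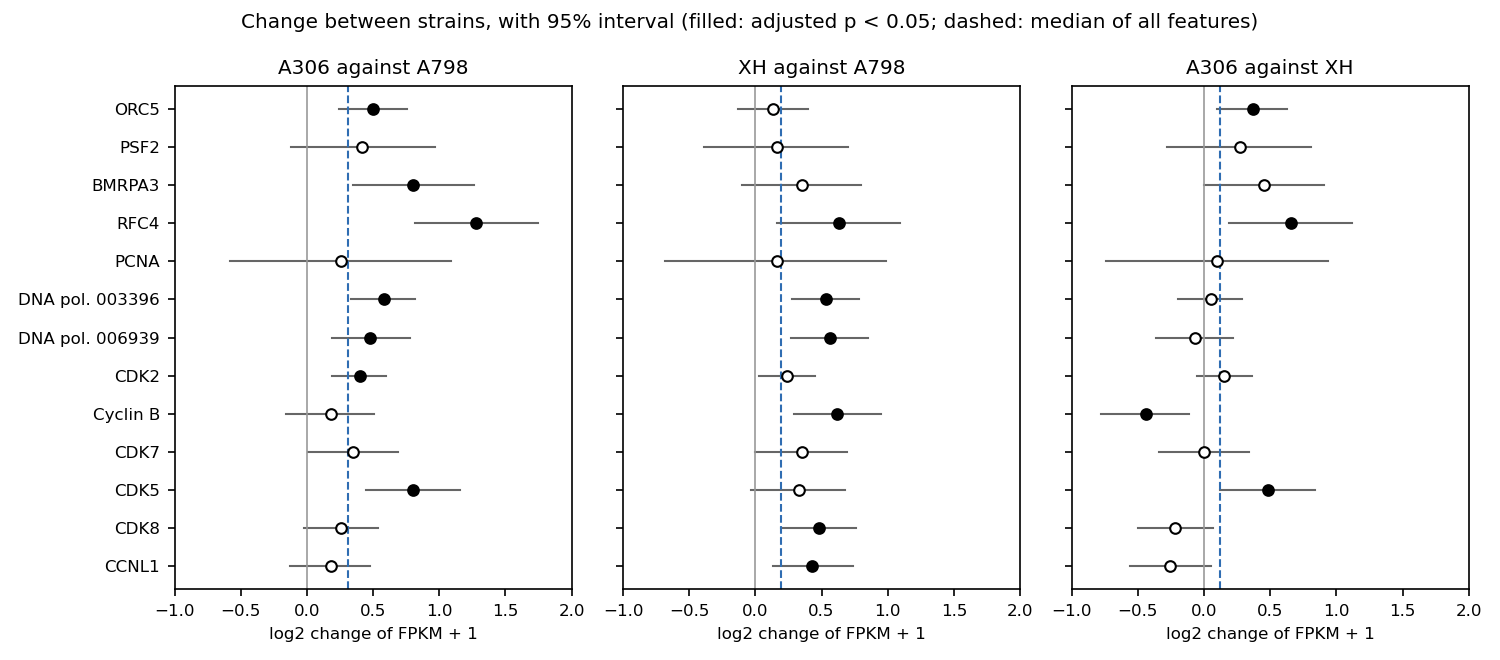
Log2 change of FPKM + 1 for each gene in the 3 comparisons (points; filled where limma's adjusted p is below 0.05), with 95% intervals (lines), no change (grey line) and the median of all 4636 features (dashed line). In A306 against A798, RFC4 at 1.28 lies farthest from the dashed line at 0.31.

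XH, whose glands had a middle weight, was next set against A798. The polymerase genes and cyclin B were higher in XH, with the transcription kinase CDK8, CCNL1 and RFC4. Of the 13 members 6 were higher in XH (46.2%), beside 25.7% of all features tested. The filter favoured the calls of cyclin B and both polymerase genes, which are among the 6, so this count is not independent of it. None (0) was lower by limma, beside 8.02% of all features, and at an unadjusted p below 0.05 the counts were 8 higher and 0 lower, beside 32.5% and 10.3% of all features. The median log2 change was 0.35 for the members and 0.19 for all features. This comparison and the first share the A798 libraries, so a low A798 value would enter both.

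Cyclin B averaged 1.44 ± 0.348 FPKM in XH and 0.580 ± 0.0700 FPKM in A798, a log2 change of 0.62 ± 0.144 (limma adjusted p = 0.0125). Since XH alone carried it past the filter, its place among the members and its rise are not independent. BGIBMGA006939 rose by 0.56 ± 0.126 on the log2 scale, with 1.78 ± 0.108 FPKM in XH and 0.897 ± 0.172 FPKM in A798 (limma adjusted p = 0.0109). BGIBMGA003396 rose by 0.53 ± 0.106, with 1.68 ± 0.144 FPKM in XH and 0.853 ± 0.0603 FPKM in A798 (limma adjusted p = 0.00629). CDK8 averaged 5.06 ± 0.466 FPKM in XH and 3.36 ± 0.490 FPKM in A798 (log2 change 0.48, limma adjusted p = 0.0188). CCNL1 averaged 6.33 ± 0.515 FPKM in XH and 4.43 ± 0.440 FPKM in A798 (log2 change 0.43, limma adjusted p = 0.0367). These 5 changes lay between 0.24 and 0.43 above the median of all features.

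RFC4 averaged 5.05 ± 0.603 FPKM in XH and 3.02 ± 1.18 FPKM in A798, a log2 change of 0.63 ± 0.202 that passed narrowly (limma adjusted p = 0.0459, over all alternatives from 0.00745 to 0.188). CDK2 did not overlap between the strains but missed the threshold (log2 change 0.24, interval 0.03 to 0.45, limma adjusted p = 0.0741). ORC5 and PSF2 had log2 changes of 0.13 (interval -0.13 to 0.40) and 0.16 (interval -0.39 to 0.70), which were below 0 under TMM scaling, quantile normalization and median centring. PCNA had 0.16 (interval -0.68 to 0.99), also below 0 under these 3. BMRPA3 (0.35, interval -0.10 to 0.80), CDK7 (0.35, interval 0.00 to 0.69) and CDK5 (0.33, interval -0.03 to 0.68) did not pass.

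Single libraries decided several of these calls. RFC4 no longer passed when any library other than A798 replicate 2 was left out. CDK8 no longer passed without A798 replicate 2 or 3 or XH replicate 3, and CCNL1 without A798 replicate 2 or 3 or any 1 XH library. Conversely CDK5 passed without XH replicate 3 (adjusted p = 0.0232, over all alternatives from 0.0232 to 0.744), BMRPA3 without A798 replicate 3 (0.0109, from 0.0109 to 0.749), CDK2 without A798 replicate 1 (0.00959, from 0.00959 to 0.989) and CDK7 without XH replicate 1 (0.0414, from 0.0414 to 0.663). Cyclin B and both polymerase genes passed with any single library left out, but the filter stayed that of all 9 libraries. The filter had favoured all of these genes, so for them this is no support. Under median centring none (0) of the 13 passed, under quantile normalization 2 did and under TMM scaling 3 did, cyclin B and BGIBMGA003396 being among them in the last 2. Of all 4636 features, 559, 649 and 627 were higher in that order, beside 1191 as deposited. The calls thus became fewer over all features too, and member counts this small do not set the 13 genes apart.

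**Figure D3:**
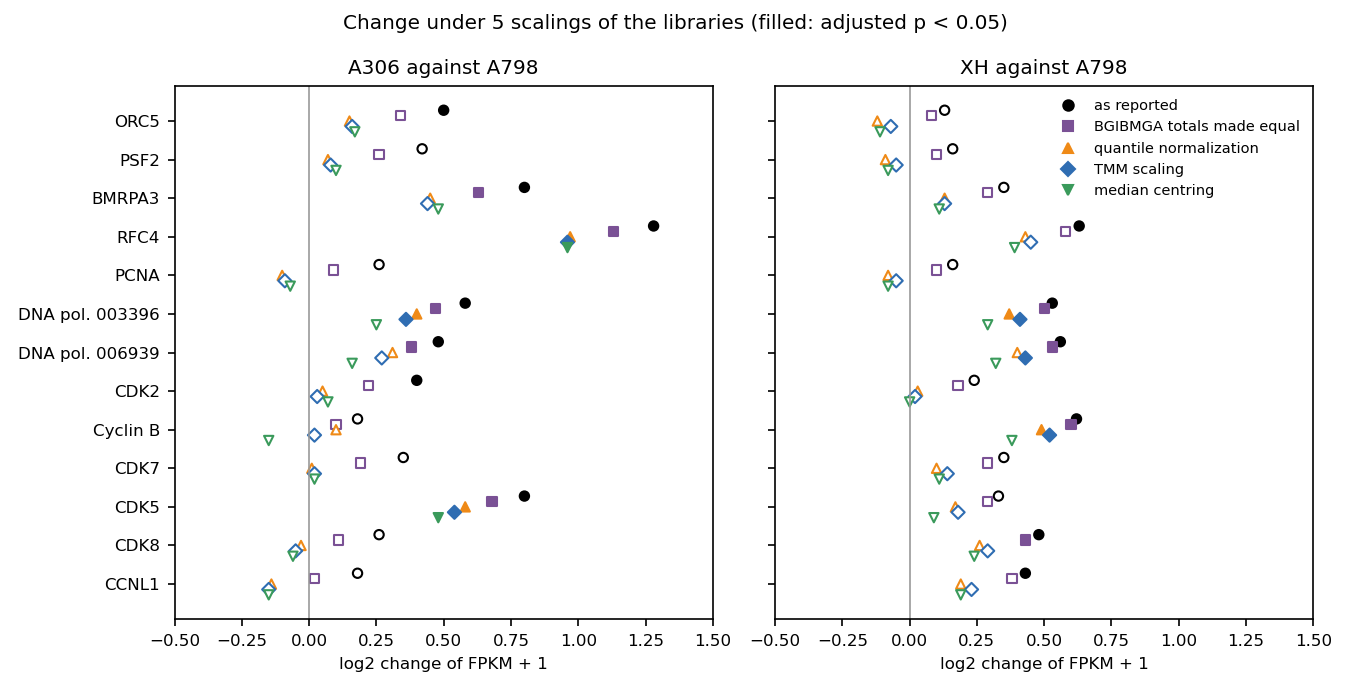
Log2 change of FPKM + 1 of each gene in A306 and in XH against A798 (horizontal axis), as deposited and under 4 other scalings of the libraries (symbols; filled where limma's adjusted p is below 0.05). RFC4 in A306 against A798 is filled under all 5, while PCNA lies on either side of 0.

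A306 was last set against XH. ORC5, the clamp loader gene RFC4 and CDK5 were higher in A306, and cyclin B was lower. Of the 13 members 3 were higher (23.1%), the same share as the 23.1% of all features tested, and 1 was lower, beside 13.4% of all features. At an unadjusted p below 0.05 the counts were 4 higher and 1 lower, beside 28.5% and 15.8% of all features. The median log2 change was 0.10 for the members and 0.12 for all features. ORC5 averaged 7.43 ± 0.601 FPKM in A306 and 5.54 ± 0.495 FPKM in XH (log2 change 0.37, limma adjusted p = 0.0373). RFC4 averaged 8.52 ± 0.455 FPKM in A306 and 5.05 ± 0.603 FPKM in XH (log2 change 0.66, limma adjusted p = 0.0355). CDK5 averaged 3.08 ± 0.220 FPKM in A306 and 1.96 ± 0.546 FPKM in XH (log2 change 0.48, limma adjusted p = 0.0431). Cyclin B fell to 0.787 ± 0.138 FPKM in A306, against 1.44 ± 0.348 FPKM in XH (log2 change -0.44, limma adjusted p = 0.0436). It passed the filter through XH alone, which favoured this call, so the count of 1 lower is no support for a difference.

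These 4 calls were close to the threshold and were easily lost. Leaving out any A306 library left 0 of the 13 higher, beside 18.9% to 19.9% of all features. Leaving out any of the 9 libraries lost the call of cyclin B. TMM scaling, median centring, quantile normalization and equal totals of the BGIBMGA genes also left 0 higher. Of all features, 15.7%, 18.6%, 16.8% and 17.1% were higher in that order. The polymerase genes, by contrast with their rise over A798, had changes of 0.05 (BGIBMGA003396, interval -0.20 to 0.29) and -0.07 (BGIBMGA006939, interval -0.36 to 0.22). BMRPA3 (0.45, interval 0.00 to 0.91) and CDK2 (0.15, interval -0.05 to 0.36) did not overlap between the strains but did not pass (adjusted p = 0.112 and 0.228). CDK8 and CCNL1, whose A306 libraries lay below those of XH, had changes of -0.22 and -0.26 (adjusted p = 0.215 and 0.175). As a description, cyclin B FPKM per CDK2 FPKM was 0.0573, 0.0527 and 0.0409 in A306, 0.0866, 0.0921 and 0.131 in XH, and 0.0393, 0.0590 and 0.0526 in A798. XH was the highest, which the filter had favoured.

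Other genes of cell division and DNA supply were taken from lists of words and symbols. Of 6 tested genes on the list of further cell cycle and replication genes, 3 rose and 1 fell in A306 against A798, and 2 rose and 1 fell in XH against A798; in A306 against XH, 1 rose and 1 fell. Over all features the shares higher and lower were 37.9% and 9.60% for the first comparison, 25.7% and 8.02% for the second and 23.1% and 13.4% for the third, and 6 genes are too few to stand apart from them. Under TMM scaling the list's counts were 1 and 1, 1 and 1, and 0 and 1. Of the genes of this list called higher against A798, the one that changed most was CDC2. This kinase pairs with cyclin B in mitosis, and the description words had missed it. It was at 8.31, 8.53 and 9.42 FPKM in A306, 6.28, 5.48 and 6.72 FPKM in XH and 3.38, 4.29 and 3.92 FPKM in A798, with no overlap between strains. Its log2 change was 1.01 ± 0.110 in A306 against A798 (limma adjusted p = 0.000183), 0.56 in XH against A798 (0.00587) and 0.45 in A306 against XH (0.0139). The first of these passed under all 5 scalings, and the second was lost under median centring and quantile normalization (adjusted p = 0.0723 and 0.0701). The third was lost under TMM scaling, quantile normalization and equal BGIBMGA totals (adjusted p = 0.0675, 0.0531 and 0.0506). CDC2 FPKM per CDK2 FPKM was 0.561 ± 0.0440 in A306, 0.442 ± 0.0409 in XH and 0.337 ± 0.0743 in A798.

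The subunit 10 gene of the anaphase-promoting complex (BGIBMGA000948), which marks mitotic proteins for destruction, was at 9.87 ± 0.295 FPKM in A306, 9.80 ± 1.13 FPKM in XH and 7.33 ± 0.218 FPKM in A798. It rose in both lighter strains (log2 changes 0.38 and 0.37, limma adjusted p = 0.00848 and 0.0142), calls that were lost under quantile normalization, TMM scaling and median centring, and for A306 also with equal BGIBMGA totals (adjusted p = 0.0968). The call in A306 was likewise lost under all 4 other scalings for a gene of cullin neddylation (BGIBMGA003300, log2 change 0.38, limma adjusted p = 0.0251). A second gene of this description, BMO.10634, fell to 2.68 ± 0.750 FPKM in A306, against 6.59 ± 0.497 FPKM in XH (log2 change -1.06, limma adjusted p = 0.0359). The gene that fell against A798 in both strains, RPA43_N, was drawn in by its symbol and belongs by name to RNA polymerase I, not to replication protein A (log2 changes -1.03 and -0.89, limma adjusted p = 0.000542 and 0.00177). E2F1, the transcription factor that turns on genes of DNA synthesis (BME2F1), was at 0.62, 0.00 and 0.44 FPKM in A306, at 0.57, 0.06 and 0.00 FPKM in XH and listed at 0 in A798, below the filter.

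Of 14 tested genes of DNA repair, nucleotide supply and chromatin, 6 rose and 1 fell in A306 against A798, 6 rose and 1 fell in XH against A798, and 2 rose and 2 fell in A306 against XH. All features tested gave 37.9% higher and 9.60% lower, 25.7% and 8.02%, and 23.1% and 13.4% in the same comparisons, so counts this small do not set the list apart. Under TMM scaling the list had 4 higher and 2 lower, 4 and 1, and 1 and 3. The DNA supercoiling factor gene BGIBMGA001107 averaged 171 ± 8.82 FPKM in A306, 191 ± 0.764 FPKM in XH and 52.6 ± 1.46 FPKM in A798 (log2 changes against A798 of 1.68 and 1.84, limma adjusted p = 7.40e-08 and 7.56e-08). The histone H2A gene HIS2AV was at 71.1 ± 10.3 FPKM in A306, 36.8 ± 7.28 FPKM in XH and 38.3 ± 5.34 FPKM in A798, so that A306 stood apart (log2 change 0.88 against A798 and 0.94 against XH, limma adjusted p = 0.00310 and 0.00280). A histone H3 gene (BGIBMGA005550) was lower in A306 than in XH (425 ± 26.6 and 525 ± 8.42 FPKM, log2 change -0.31, limma adjusted p = 0.00138). RAD23, a gene of nucleotide excision repair, was at 97.7 ± 3.69 FPKM in A306, 82.6 ± 5.23 FPKM in XH and 55.3 ± 2.74 FPKM in A798. Its log2 changes against A798 were 0.81 in A306 and 0.57 in XH (limma adjusted p = 2.34e-05 and 0.000255), and both passed under all 5 scalings. The call of RAD23 in A306 against XH (limma adjusted p = 0.0161) was lost under TMM scaling, quantile normalization and equal BGIBMGA totals. The single gene counted as lower against A798 in both strains was the histone H4 gene H4-L, listed at 0 in A306 and XH and at 8.06, 2.60 and 1.10 FPKM in A798. It passed the filter through A798 alone, and since a listed 0 does not show silence, that count is no evidence of a fall. Histone genes have near-identical copies, so these values are uncertain: the assignment of shared reads is not stated.

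Both measured genes of ribonucleotide reductase, the enzyme that makes DNA precursors, rose in both lighter strains. The small subunit BMRNRS was at 20.25, 19.56 and 18.80 FPKM in A306, 24.47, 22.22 and 24.01 FPKM in XH and 15.06, 15.71 and 11.07 FPKM in A798. XH was the highest, and no strains overlapped. Its log2 change was 0.73 in XH against A798 (limma adjusted p = 0.00246), which passed under all 5 scalings, and 0.47 in A306 against A798 (0.0135), which did not pass under the other 4. The second gene, BMO.4128, was at 8.33 ± 0.442 FPKM in A306, 7.49 ± 0.374 FPKM in XH and 4.78 ± 0.112 FPKM in A798, with log2 changes against A798 of 0.69 and 0.55 (limma adjusted p = 0.000214 and 0.00104) that passed under all 5 scalings. A DNA ligase gene, BGIBMGA006237, which joins new strands, rose by 0.53 and 0.46 (limma adjusted p = 0.0116 and 0.0283), calls lost under quantile normalization, TMM scaling and median centring. BMO.4128 and the ligase were named after their values were seen, as were genes below the filter named here and in the next paragraph.

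Genes of the mitotic spindle were mostly too low to test. Of 7 genes on the list of mitosis and cytokinesis 3 could be tested, all of them tubulins, which every cell also uses outside mitosis. The alpha-tubulin gene TUA1 fell to 1496 ± 29.6 FPKM in A306, against 1775 ± 137 FPKM in A798 and 1785 ± 23.2 FPKM in XH (log2 changes -0.24 and -0.26, limma adjusted p = 0.00502 and 0.00520). These calls held under all 5 scalings. The other two did not pass in any comparison as deposited, and under TMM scaling 2 of the 3 tubulins were lower in A306 than in A798. The kinesin gene BMO.118 stayed below the filter, with strain means of 0.187, 0.0933 and 0.0400 FPKM in A306, XH and A798. Topoisomerase 2 (TOP2), which untangles copied chromosomes, was also below it, with means of 0.757, 0.757 and 0.563 FPKM in the same order.

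**Figure D4:**
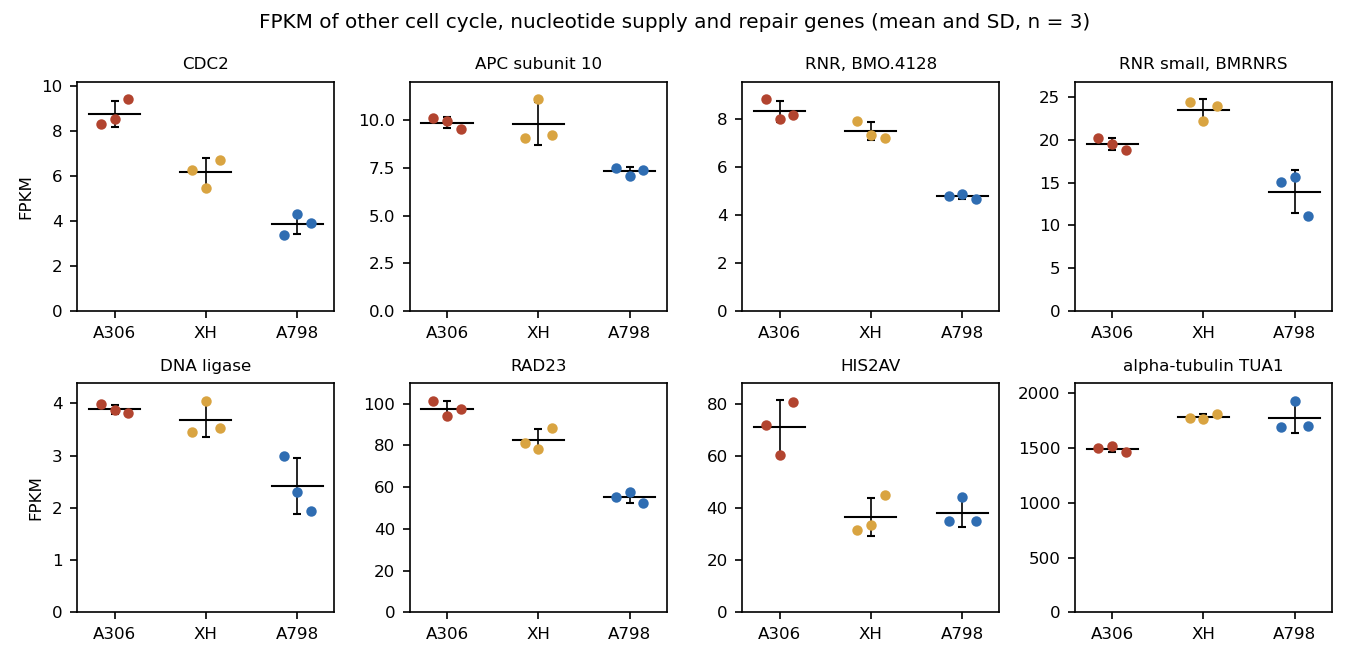
FPKM (vertical axis, a scale of its own per gene, from 0) of CDC2, subunit 10 of the anaphase-promoting complex (APC), both ribonucleotide reductase (RNR) genes, a DNA ligase gene, RAD23, HIS2AV and TUA1 in the 3 libraries of each strain (points), with mean (line) and SD (bar). CDC2 and both RNR genes show no overlap between any strains, while HIS2AV is high in A306 alone and TUA1 is lowest there.

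Transcripts of other tissues moved between the strains too. Summed FPKM of 8 fat body and haemolymph genes ran from 51.2 to 59.0 for A306, from 1444 to 1506 for XH and from 446 to 458 for A798, and all 7 tested genes of the list fell in A306 and rose in XH against A798. Vitellogenin (VG) was at 0.01 FPKM or below in every library. Summed FPKM of 9 haemocyte and muscle genes ran from 120 to 132 for A306, from 109 to 111 for XH and from 71.8 to 84.1 for A798, the order of the summed replication and cell cycle genes. Of its 6 tested genes, 3 rose and 1 fell in A306 against A798, and 4 rose and 0 fell in XH against A798, where 37.9% and 25.7% of all features were higher. Under each of the 4 other scalings the first count was 1 higher and 1 lower, beside 15.7% to 25.3% of all features higher. The second stayed at 4 higher under each of them, beside 12.1% to 21.4% of all features. It had 1 lower under TMM scaling and median centring and 0 lower under quantile normalization and equal BGIBMGA totals. Muscle-type actin A1 and a galectin gene (BGIBMGA014456) made up most of that sum, the actin at 72.9 ± 3.74, 62.0 ± 2.65 and 38.2 ± 2.95 FPKM in A306, XH and A798. Other genes of the list had another order: the galectin was at 46.4 ± 1.31, 32.2 ± 2.78 and 34.2 ± 3.55 FPKM in the 3 strains, and phenoloxidase subunit 2 (PRO-PO2) at 0.0733 ± 0.0751, 3.63 ± 0.299 and 0.700 ± 0.0964 FPKM. Myosin light chain 2 (MLC-2) was at 0.28 to 1.21 FPKM in A306, 2.54 to 4.04 FPKM in XH and 0.00 to 0.47 FPKM in A798, and a troponin C gene (BGIBMGA008861) was at 0 in 5 of the 9 libraries. The part of such cells in the values of the replication and cell cycle genes was not tested.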

How the data were processed

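RNA-seq of total silk gland RNA was available as 1 gene table with FPKM values that the authors deposited for 9 libraries, 3 for each strain. The tools fastp 0.19.5, StringTie 1.3.3b and DESeq2 1.24.0 are named per the submitters' processing notes. Aligner, genome build and annotation: not given in the sources used here. FPKM divides by library total and gene length, so values of 1 library trade off against each other. Low values did not step in whole reads (10.3% of feature ratios at the commonest step), so depth, and any counting interval, is unknown.

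Features with at least 1 FPKM in at least 3 libraries were tested as log2(FPKM + 1) with limma 3.58.1 in R 4.3.3, with strain as the only term, a trended prior variance and 2-sided Benjamini-Hochberg adjusted p-values over 4636 features; adjusted p below 0.05 was called. The code was tested on simulated data. The deposited strain means (3 columns) and a second table of 5 genes with the same FPKM values were not used. All members were named. From the other lists, some passing genes with large changes were named, but none of those on the fat body and haemolymph list. The members and lists were chosen with earlier results of these data known. Of the 7 members with a symbol, 7 were found in the RefSeq gene table. Alternatives covered the pseudocount, the filter, 4 scalings, the features and libraries fitted, the replicate block and each library left out. Replicates of the same number did not deviate together (correlations from 0 to 0.063), so they were not paired. Within a strain, libraries correlated at 0.961 to 0.966, and no 2 were identical.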

Additional observations from a re-analysis of the deposited data

How the results depend on the processing

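Of the 726 changes of single members recomputed over the alternatives, 580 kept direction and side of the threshold, 106 kept direction but lost the call, 6 gained it and 34 changed sign; the cause was not tested. The number higher in A306 against A798 was 7; it was 4 with a filter of 5 FPKM (fewer genes tested), 3 under TMM scaling, 2 under median centring, 3 under quantile normalization and 7 to 7 with a library left out. In XH against A798 it was 6, and then 2, 3, 0 and 2 under the same 4 settings and 4 to 6. In A306 against XH it was 3, but 1 with a pseudocount of 0.1 and 0 without a filter, under TMM scaling, median centring, quantile normalization and equal BGIBMGA totals, and 0 to 3 with a library left out. The number lower there was 1, but 0 with that pseudocount, with a filter of 5 FPKM, without a filter, under quantile normalization, in a fit of that pair alone and with any library left out (0 to 0). With a library left out, 32.1% to 37.1% of all features were higher in A306 against A798. The same share was 19.8% to 24.6% in XH against A798 and 18.9% to 23.2% in A306 against XH. Equal BGIBMGA totals were added after seeing the data. Over all features as deposited, 1759 were higher and 445 lower in A306 against A798, 1191 and 372 in XH against A798, and 1071 and 622 in A306 against XH. Under TMM scaling these were 726 and 832, 627 and 656, and 726 and 792; under median centring 759 and 834, 559 and 709, and 860 and 732; under quantile normalization 796 and 693, 649 and 595, and 779 and 707; under equal totals 1173 and 563, 994 and 438, and 792 and 748. With a replicate block, whose numbers do not pair the samples, 7, 4 and 1 members were higher in the 3 comparisons and 0 were lower in A306 against XH.

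No value that changed sign was called. Under TMM scaling these were PCNA -0.09, CDK8 -0.05 and CCNL1 -0.15 in A306 against A798; ORC5 -0.07, PSF2 -0.05 and PCNA -0.05 in XH against A798; and PCNA -0.04, BGIBMGA003396 -0.05 and CDK7 -0.13 in A306 against XH. Under median centring they were PCNA -0.07, cyclin B -0.15, CDK8 -0.06 and CCNL1 -0.15, then ORC5 -0.11, PSF2 -0.08 and PCNA -0.08, then BGIBMGA003396 -0.04 and CDK7 -0.09, in the same order of comparisons. Under quantile normalization they were PCNA -0.10, CDK8 -0.03 and CCNL1 -0.14, then ORC5 -0.12, PSF2 -0.09 and PCNA -0.08, then PCNA -0.02 and CDK7 -0.09. Under equal BGIBMGA totals they were PCNA -0.01, BGIBMGA003396 -0.03 and CDK7 -0.10 in A306 against XH. With a library left out, PCNA ran from -0.12 to 0.60 in XH against A798 and from -0.35 to 0.37 in A306 against XH, and CDK7 from -0.13 to 0.08 in A306 against XH.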
